A study of Mus musculus with 6 samples.

Results

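The AP-1 transcription factor family was described in mouse mesenchymal stem cell cultures exposed to terahertz radiation and in their unexposed neighbours. The members were the genes Fos, Fosb, Fosl1, Fosl2, Jun, Junb, Jund, Maff and Atf3, chosen by symbol. All probe sets whose single annotated symbol was one of these 9 were taken, which gave 13 of 45037 probe sets on the Affymetrix array. The probe set with the highest mean level stood for a gene. Genes reaching a group mean of 6 on the log2 scale are called expressed, an arbitrary level since no detection calls were used. By that measure 8 of the 9 members were expressed, among 9302 expressed genes of 18193, and Fosb was dim.

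The irradiated group was 3 cultures exposed for 12 h to femtosecond pulses of broadband terahertz radiation centred near 10 THz, at an average of 1 mW/cm2 and 1 kHz. The control group was 3 cultures that stood beside them without exposure. Both groups were commercial mouse mesenchymal stem cells grown with 5 µg/ml insulin, 1 µM rosiglitazone, 1 µM dexamethasone and 100 µM 3-isobutyl-1-methylxanthine (IBMX), last added 48 h before, at 26 to 27 °C. Each of 3 independent biological experiments gave 1 irradiated and 1 control array, and RNA was taken directly after exposure. No strain, passage or animal is given in the labels. IBMX blocks the breakdown of cyclic AMP, and rosiglitazone, insulin and dexamethasone push stromal cells towards fat cells. All these agents were present in both groups.

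AP-1 is a dimer of basic leucine zipper proteins that binds short DNA sites. Fos proteins cannot pair with themselves and pair with Jun proteins, which can also pair with each other. Fos, Fosb, Jun, Junb and Atf3 are early response genes, switched on within minutes by growth factors, cyclic AMP or stress, whereas Fosl1 and Fosl2 proteins tend to last longer. Maff is a small Maf protein without an activation domain, and Atf3 is a stress-induced factor that often represses.

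Among the members, Fosl2 was 1.34-fold higher in irradiated cultures by its leading probe set, by the same log2 difference in each experiment, and Jun was 1.23-fold lower by its leading probe set. Neither gene's second probe set shared this. That of Jun was expressed, while that of Fosl2 was dim, at 5.40 in irradiated and 5.55 in control cultures. Fos, Fosl1 and Maff were higher by 0.75 to 1.03 on the log2 scale in experiment 3 and differed by at most 0.47 either way in experiments 1 and 2. With limma, fitted with a term for each experiment, none of the 45037 probe sets passed Benjamini-Hochberg adjustment at 0.05 (0.00% called), so no member passed, and the smallest adjusted p over all of them was 0.188. At an unadjusted p under 0.05 stood 3631 probe sets (8.06%) and 1009 expressed genes (10.8%), and 2 of the 8 expressed members, Fosl2 and Jun. The differences below are therefore given as values.

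The cultures held more than stromal and fat cells. Of 15 measured macrophage and myeloid markers 14 were expressed, among them Ptprc at 9.81 in irradiated and 9.85 in control cultures and Csf1r at 12.92 in irradiated and 13.03 in control cultures, while Cd163 was dim. Of 12 stromal markers 11 were expressed and Thy1 was dim, at 4.07 in irradiated and 4.11 in control cultures. All 6 measured fat cell markers were expressed. Endothelial, lymphoid and epithelial markers were expressed in 0 of 6, 0 of 4 and 1 of 6 cases. The log2 of the summed macrophage marker signal ran from 15.71 to 16.35 over irradiated and from 15.88 to 16.54 over control arrays. Macrophages also transcribe AP-1 genes, and in RNA from whole cultures fewer cells of a type and less RNA per cell cannot be told apart.

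Promoter windows are shown for Fos, Fosl2 and Maff because these genes carry the main patterns, and because the cyclic AMP response element is a well known route from cyclic AMP to early genes. Each is the 250 bases before an annotated start, on the plus strand, from RefSeq on GRCm38.p6. Capitals mark TGACG, the short core of that element, or its reverse complement CGTCA.
Fos, chr12:85473640-85473889: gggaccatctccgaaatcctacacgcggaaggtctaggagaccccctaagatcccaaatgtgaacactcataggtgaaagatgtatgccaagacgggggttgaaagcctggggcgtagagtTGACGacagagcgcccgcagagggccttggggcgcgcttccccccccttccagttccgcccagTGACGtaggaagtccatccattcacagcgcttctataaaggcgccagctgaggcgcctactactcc
Maff, 1 of 3 listed starts, chr15:79347270-79347519: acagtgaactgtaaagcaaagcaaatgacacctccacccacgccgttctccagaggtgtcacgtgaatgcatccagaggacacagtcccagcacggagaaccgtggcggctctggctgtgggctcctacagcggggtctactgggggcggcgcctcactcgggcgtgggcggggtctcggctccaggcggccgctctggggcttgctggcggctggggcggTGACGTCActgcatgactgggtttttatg
Fosl2, chr5:32136222-32136471: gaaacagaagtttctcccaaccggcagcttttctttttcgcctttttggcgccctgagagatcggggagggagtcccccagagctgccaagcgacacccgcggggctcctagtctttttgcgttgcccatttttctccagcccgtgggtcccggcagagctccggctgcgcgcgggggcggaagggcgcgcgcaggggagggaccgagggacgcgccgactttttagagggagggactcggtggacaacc
The Fos window held the core at 129 and 66 bases before the start. This Maff window held the whole palindrome TGACGTCA, 29 bases before its start, and the Fosl2 window held neither. Of the Maff windows not shown, the one from 79348152 held only the core, as CGTCA, 122 bases before its start. The one from 79346371 held neither.

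Windows of 250 bases before and 50 after a start were searched on both strands for the 8 members other than Fosl1, which had 10 listed starts. The core TGACG was found in 6 of the 10, against 20.8% of 32851 windows of all genes, and the whole element TGACGTCA, which contains it, in 1 of 10, against 1.79%. The AP-1 site TGANTCA was found in 0 of 10, against 7.81%, and the serum response element core in 0 of 10, against 1.63%. The TATA box letters TATAAA, sought on the forward strand only, were found in 2 of 10, against 8.32%. In Fos they lay 33 bases before the start, while in Junb they began at the start itself and not before it. The cores of Fosb and Junb lay 60 and 106 bases before the start. Read on the forward strand alone, the core was in 4 of 10 and in 12.4% of all windows. Sites more than 250 bases before a start lay outside the windows, so a count of 0 does not show that a gene lacks the site. These matches describe letters and show no binding.

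Fosl2 encodes Fra-2, a Fos protein with roles in fat, bone and connective tissue. Its leading probe set, 1437247, read 10.25, 9.80 and 9.95 in the irradiated cultures of experiments 1, 2 and 3, against 9.83, 9.38 and 9.53 in their controls. Each irradiated culture was above its own control by 0.42, while the groups overlapped, since the irradiated culture of experiment 2 lay below the control of experiment 1. The mean log2 difference was 0.42 ± 0.09 (SE; 95% interval 0.20 to 0.64), with an unadjusted limma p of 0.0032 and an adjusted p of 0.530. The 3 differences were equal to 2 decimals, which held for 15 probe sets in all, so the SE came from the spread that limma assumes across probe sets and not from these 3 values. Ranked by unadjusted p, Fosl2 was at place 97 among expressed genes. The second Fosl2 probe set, 1422931, was dim, at 5.40 ± 0.22 in irradiated and 5.55 ± 0.40 in control cultures (SD, n = 3 each), and differed by -0.03, 0.09 and -0.49. Averaged over both probe sets, Fosl2 differed by 0.14 (limma adjusted p = 0.727).

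Fos encodes the founding Fos protein. It read 10.40, 10.67 and 11.45 in irradiated cultures, against 10.35, 11.14 and 10.65 in controls. Its differences of 0.05, -0.47 and 0.80 had no common sign, and the irradiated culture of experiment 3 was the highest of the 6. The mean log2 difference was 0.13 ± 0.22 (SE; 95% interval -0.41 to 0.66; limma adjusted p = 0.911), and without experiment 3 it was -0.21. Fosb, a close relative of Fos, was dim on all 6 arrays, at 4.68, 4.47 and 4.99 in irradiated and 4.80, 4.67 and 5.14 in control cultures. Its log2 differences were small and negative in each experiment, with a mean of -0.16 ± 0.09 (SE), near background.

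Fosl1 encodes Fra-1, the Fos protein most tied to cell movement and matrix turnover. Its leading probe set, 1417487, read 9.89, 9.08 and 9.69 in irradiated cultures, against 9.82, 9.15 and 8.94 in controls. The pair of experiment 3 differed by 0.75 and the others by 0.07 and -0.07, so the mean log2 difference of 0.25 ± 0.17 (SE; limma adjusted p = 0.725) became 0.00 without experiment 3. The second probe set, 1417488, just above the expressed level at 6.09 ± 0.53 in irradiated and just below it at 5.85 ± 0.40 in control cultures (SD, n = 3 each), differed by 0.32, -0.02 and 0.40. Both probe sets therefore had their highest difference in experiment 3, but they disagreed about experiment 1.

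**Figure D1:**
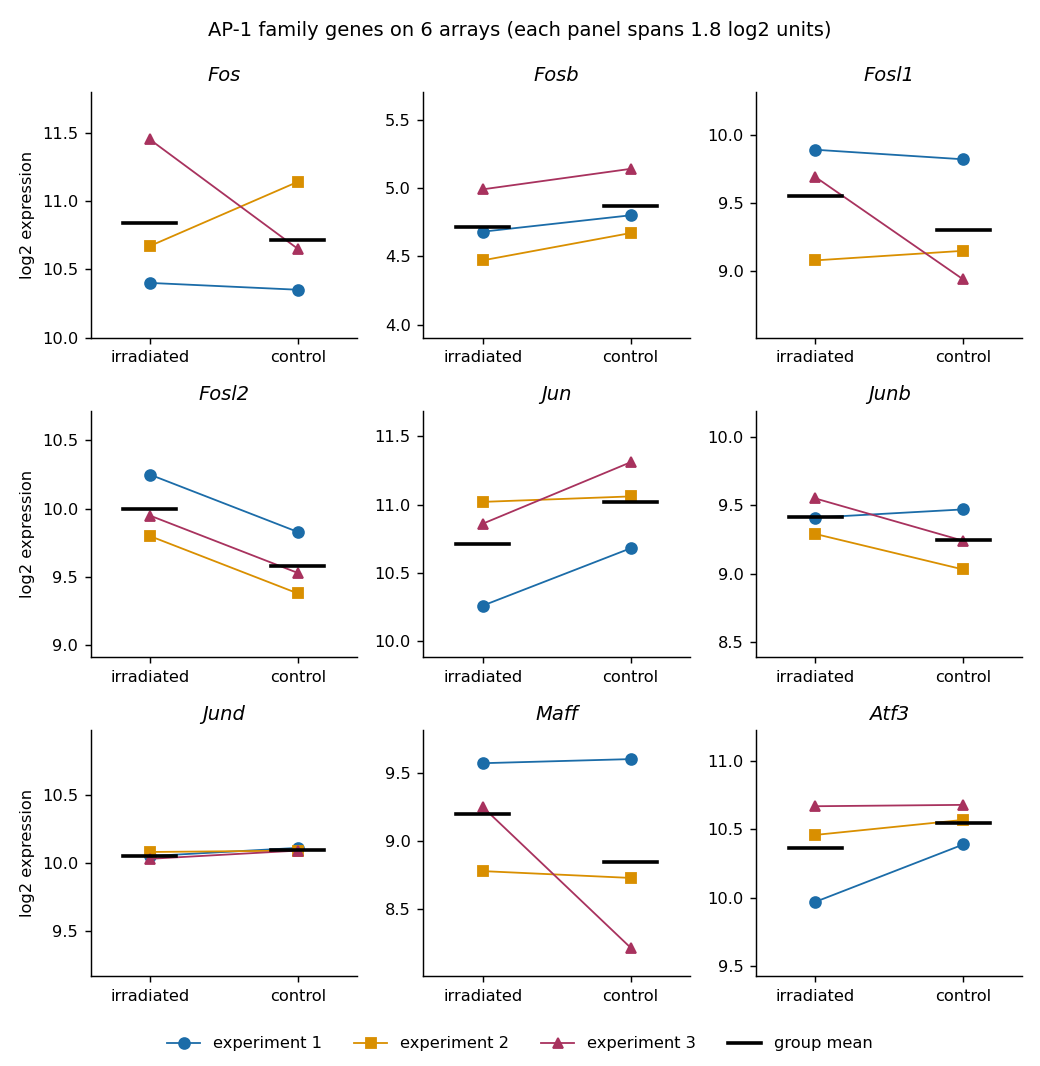
Log2 expression (vertical axis) of the leading probe set of each of the 9 genes in irradiated and control cultures, with lines joining the arrays of 1 experiment and black bars for group means. The Fosl2 lines run in parallel, each 0.42 higher in the irradiated culture, while for Fos, Fosl1 and Maff the experiment 3 line stands apart from the others.

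Jun encodes the main partner of Fos. Its leading probe set, 1417409, read 10.26, 11.02 and 10.86 in irradiated cultures, against 10.68, 11.06 and 11.31 in controls. It was lower in each irradiated culture, by 0.42 and 0.45 in experiments 1 and 3 on the log2 scale and by 0.04 in experiment 2, and the groups overlapped. The mean log2 difference was -0.30 ± 0.12 (SE; 95% interval -0.59 to -0.02), with an unadjusted limma p of 0.0395 and an adjusted p of 0.600. The second Jun probe set, 1448694, which was also expressed, did not share this: it differed by -0.21, 0.29 and -0.07, with a mean of 0.00 ± 0.12 (SE). Averaged over both, Jun differed by -0.15. The 2 probe sets thus differed in sign in experiment 2.

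Junb and Jund, the other Jun proteins, often hold back growth that Jun promotes. Junb read 9.41, 9.29 and 9.55 in irradiated cultures, against 9.47, 9.03 and 9.24 in controls, a mean log2 difference of 0.17 ± 0.11 (SE; limma adjusted p = 0.723). It was higher in experiments 2 and 3 and lower by 0.06 in experiment 1, and its mean was 0.28 without experiment 1 and 0.10 without experiment 3. Jund, which is not strongly induced by stimuli, read 10.05, 10.08 and 10.03 in irradiated cultures, against 10.11, 10.09 and 10.09 in controls. Its groups did not overlap, the single such case among 8 expressed members, against 12.5% of expressed genes, or 7.12% in this direction, but the mean log2 difference was only -0.04 ± 0.09 (SE; 95% interval -0.27 to 0.18). A second Jund probe set was dim, with a mean of 3.62 in irradiated and 3.65 in control cultures.

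Maff read 9.57, 8.78 and 9.25 in irradiated cultures, against 9.60, 8.73 and 8.22 in controls. The irradiated culture of experiment 3 lay within the range of the others, and its control was the lowest of the 6 arrays. The 3 differences were -0.03, 0.05 and 1.03, so the mean of 0.35 ± 0.21 (SE; limma adjusted p = 0.701) became 0.01 without experiment 3. Atf3 read 9.97, 10.46 and 10.67 in irradiated cultures, against 10.39, 10.57 and 10.68 in controls. It was lower in each irradiated culture but by unequal amounts, 0.42, 0.11 and 0.01 on the log2 scale, with a mean difference of -0.18 ± 0.12 (SE; limma adjusted p = 0.714), or -0.06 without experiment 1.

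**Figure D2:**
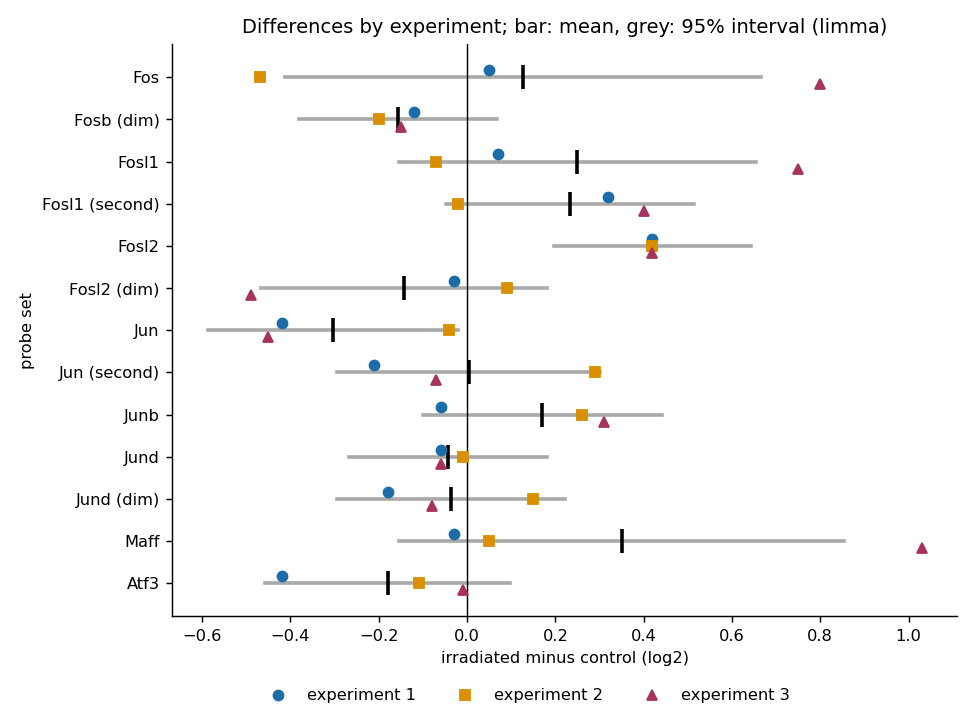
Irradiated minus control log2 differences (horizontal axis) of all 13 probe sets, with 1 symbol per experiment, black bars for means and grey lines for limma 95% intervals. The intervals of the leading probe sets of Fosl2 (0.20 to 0.64) and of Jun (-0.59 to -0.02) leave out 0 before adjustment.

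Over the 8 expressed members, 5 mean differences were above 0 and 3 below, and 4 members had 1 sign in all 3 experiments, against 37.3% of expressed genes. These were Fosl2, which was higher, and Jun, Jund and Atf3, which were lower, with shares of 18.6% and 18.7% of expressed genes in those directions. The members' median log2 difference was 0.15, beside 0.00 for all expressed genes. By experiment their medians were -0.04, -0.02 and 0.36, beside 0.01, 0.00 and 0.00 for all expressed genes. Without experiment 3, 3 members and not 5 were above 0.

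Experiment 3 held the widest differences of the family. Fos, Fosl1 and Maff were higher there by at least 0.5, a threshold set after seeing the values, against 5.35% of expressed genes, and no member was in experiments 1 or 2, against 0.978% and 1.41%. Among the 9302 expressed genes, 42 differed by as much as Maff or more, 131 by as much as Fos and 167 by as much as Fosl1. The SD of the differences over expressed genes was 0.318 in experiment 3, beside 0.205 and 0.227 in experiments 1 and 2. In the same pair the hybridisation controls, spiked in before hybridisation, differed by 0.502, and the controls spiked in before labelling by -0.372. In experiments 1 and 2 those differences were 0.081 and -0.034 for hybridisation and -0.078 and 0.021 for labelling. The part of these in the members' values was not tested, and each experiment had 1 array per group, so a difference between experiments has no replicate.

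The control cultures also differed among themselves in these genes. The median range over the 3 control arrays was 0.54 for the expressed members, beside 0.26 for all expressed genes. It was widest for Maff, at 1.38, a range reached by 0.925% of expressed genes, then 0.88 for Fosl1 (3.83%), 0.79 for Fos (5.44%) and 0.63 for Jun (10.3%). It was 0.29 for Atf3 and 0.02 for Jund. For 5 of the 8 expressed members the range over controls exceeded the widest difference between an irradiated culture and its control. The matching share of all expressed genes was not counted, so this count cannot be read as a trait of the family.

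**Figure D3:**
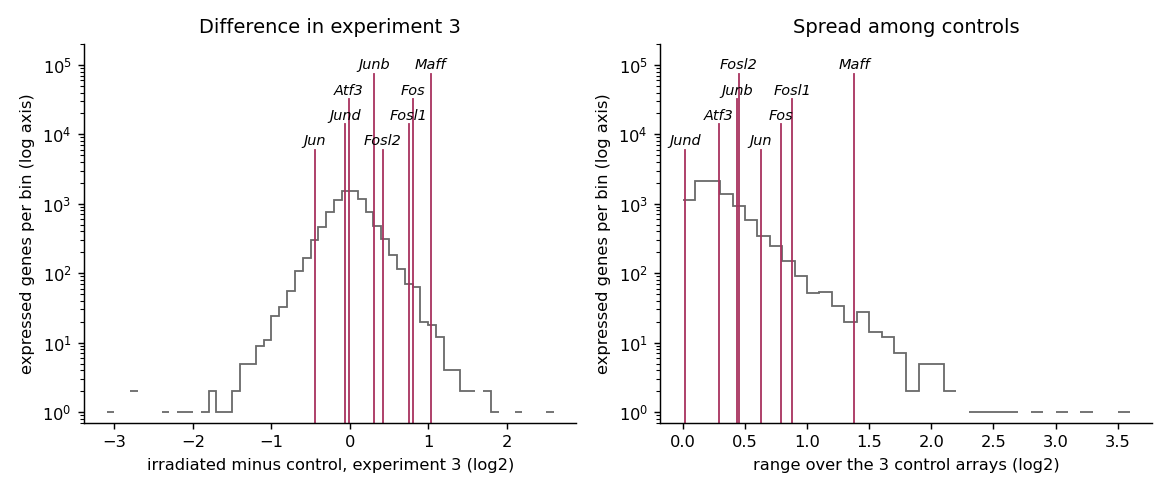
Distribution over expressed genes (number per bin of 0.1, log axis) of the experiment 3 difference, left, and of the range over the 3 control arrays, right, with the 8 expressed members as vertical lines. Maff lies in the upper tail of both, at 1.03 and 1.38, and Jund has the narrowest range of the members, at 0.02.

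Related genes were counted in lists, with differences read at an unadjusted limma p under 0.05, where the share of expressed genes was 4.57% for higher and 6.28% for lower. No gene of these lists passed adjustment over all probe sets. Among other basic leucine zipper factors, the further partners of AP-1, 19 were measured and 12 expressed. None was under that p, 8 were above 0 and 4 below, and the median was 0.03. Bach1, a repressor that pairs with small Maf proteins, had the smallest p and was higher by 0.10, 0.29 and 0.29. Maf differed by 0.20, 0.30 and 0.11 and the AP-1 repressor gene Jdp2 by 0.03, 0.25 and 0.16. Atf5 differed by -0.23, -0.58 and 0.10, with no common sign. Without experiment 3 the list had 4 genes above 0 and 8 below, with a median of -0.04 and 1 lower under that p. With the probe sets of a gene averaged, 2 were higher under it.

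Of the kinases and factors upstream of AP-1, 26 were measured and 20 expressed. Of those 20, again none was under that p, and the median was 0.05. Without experiment 2 there was 1 lower gene under it, and without experiment 3 1 higher. Map2k6, which was dim at 4.88 in irradiated and 4.33 in control cultures, was not counted. It differed by 0.88, 0.47 and 0.32, with an unadjusted limma p of 0.0045 and an adjusted p of 0.536. Mapk8, which encodes the Jun kinase JNK1, differed by 0.28, 0.09 and 0.23. Mapk7, the gene of ERK5, differed by -0.35, -0.11 and -0.14 and Map2k1, that of MEK1, by -0.14, -0.23 and -0.16. Creb1 differed by -0.26, 0.05 and -0.56, a mean of -0.26 that was -0.10 without experiment 3. Of 11 expressed genes for AP-1 coactivators, regulators and degradation, 1 was under that p. This was Fbxw7, part of a ubiquitin ligase that marks Jun for breakdown, which read 8.87 ± 0.14 in irradiated and 9.28 ± 0.29 in control cultures (SD, n = 3 each) and differed by -0.65, -0.52 and -0.06. Without experiment 1 or without experiment 2 the list had 0 genes under that p. The acetyltransferase gene Ep300 differed by -0.16, 0.04 and -0.37 and the ubiquitin ligase gene Itch by -0.16, 0.08 and -0.43, so that without experiment 3 their means were -0.06 and -0.04.

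Genes known as AP-1 targets differed in both directions. Of 33 measured, 31 were expressed, 18 above 0 and 13 below with a median of 0.03, and at an unadjusted limma p under 0.05 there were 1 higher and 8 lower. The 8 became 4 without experiment 1 and 4 with no replicate block, and the 1 became 3 with the probe sets of a gene averaged. The chemokine Cxcl1 differed by -0.80, -0.64 and -0.85 and the growth factor Ereg by -0.66, -0.84 and -0.41. Il6, the single higher gene, differed by 0.52, 0.50 and 1.11, and Phlda1, an early gene, by -0.49, -0.36 and -0.42. Of the others under that p, named after their values were seen, Ptgs2, Mmp12, Il11, Mmp3 and Tgfb1 were lower by means between 0.29 and 0.62 on the log2 scale. Il11, which set the upper end of that range, counted as expressed through its control mean only. It lay below the expressed level in each irradiated culture. Without experiment 2, Mmp3 differed by -0.23, and with its probe sets averaged Tgfb1 differed by -0.17. Mmp12 is macrophage elastase, and 13 of 14 expressed macrophage markers were below 0 in the same comparison, with medians of -0.19, 0.08 and -0.12 by experiment. Cd14, the 1 of these under that p, differed by -0.84, -0.17 and -1.18. The part of such cells in the target values was not tested. Without experiment 3, 11 targets and not 18 were above 0.

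Other early genes that respond to serum, as Fos does, had 22 expressed genes of 24 measured, 17 above 0 and 5 below, with a median of 0.10. At an unadjusted limma p under 0.05 there were 1 higher and 1 lower. Without experiment 2 there were 5 higher, with no replicate block 2 higher, and without experiment 3 2 lower. By experiment the medians were 0.04, -0.10 and 0.30, highest in experiment 3, as for the AP-1 family. Ier3, a survival gene, differed by -0.71, -0.39 and -1.14. Ccn2, a matrix growth factor, differed by 0.64, 0.35 and 2.19, a mean of 1.06 that was 0.50 without experiment 3. Myc differed by 0.71, -0.20 and 0.82, and the ERK phosphatase Dusp5 by 0.28, -0.07 and 0.81. Without experiment 3 the list had 11 genes above 0 and 11 below, with a median of -0.01.

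**Figure D4:**
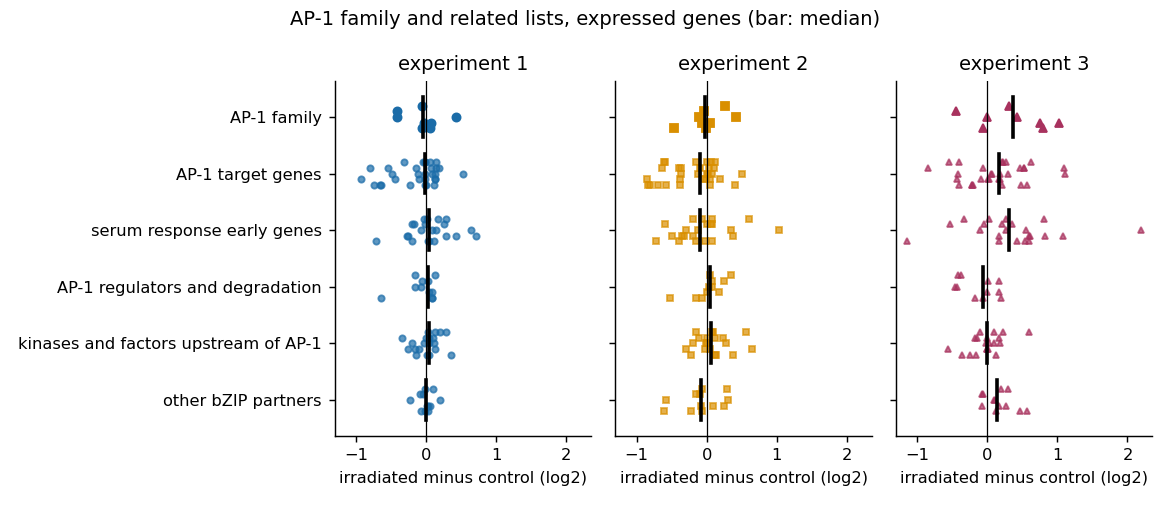
Irradiated minus control log2 differences (horizontal axis) of expressed genes in the AP-1 family and the 5 related lists, 1 panel per experiment, with black bars for medians. The family median is 0.36 in experiment 3, beside -0.04 and -0.02 in experiments 1 and 2.

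For each expressed member the 2 expressed genes with the most similar pattern were found by Pearson r over the 6 arrays, a description only, since with so few arrays many of 9302 genes reach high values and arrays of 1 experiment share a source. The nearest to Fos were Ier2, another early gene (r = 0.985), and Lman2 (r = 0.975), those to Fosl2 Ufd1 (r = 0.995) and Tead3 (r = 0.990), and those to Jun Wdr11 and Cmip (r = 0.999 and r = 0.998). Fosl1 was nearest to Cpsf7 and Tmem238, Junb to Cplx1 and Sart3, Jund to Prc1 and Smyd3, Maff to Il1rap and Ube4b, and Atf3 to Apoc2 and Ly9, with r between 0.963 and 0.998. Il1rap, which encodes a subunit of the interleukin 1 receptor, differed by 0.00, -0.07 and 0.62, beside -0.03, 0.05 and 1.03 for Maff. Ier2 differed by -0.03, -0.19 and 0.26, beside 0.05, -0.47 and 0.80 for Fos.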

How the data were processed

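The deposited table gives log2 values to 2 decimals, 1 per probe set and array, made by the authors with RMA and the affy package, with limma named beside them, per the submitters' processing notes. Per the labels' protocols, 200 ng of total RNA went into each biotin-labelled target. The sources used here name neither versions nor a genome build. Tests left out 64 array control probe sets. Of the other 45037 probe sets, 34945 carried 1 symbol, 932 several and 9160 none in the platform annotation. Group differences (irradiated minus control) were fitted by limma 3.58.1 under R 4.3.3 with a blocking term for experiment; tests were two-sided and adjusted over all probe sets by Benjamini-Hochberg. The block follows the design text, which sets each irradiated culture against its adjacent control. Deviations from group means correlated across expressed genes at 0.787, 0.028 and 0.324 within the 3 pairs. The p-values rest on the spread of the paired differences between experiments and on the spread that limma assumes across probe sets. The latter carried more degrees of freedom, 4.52 beside 2. The number of arrays limits precision. The fit was checked on simulated data. Members and lists were chosen with earlier results of these data known. The rule for named genes took all members, the 2 genes most like each expressed member, and from each list the 4 expressed genes with the smallest unadjusted p. Alternatives are given in the closing section. Python 3.11.15 and matplotlib 3.10.9 made the figures.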

Additional observations from a re-analysis of the deposited data

Results flagged for a closer look

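The hybridisation controls, which enter no comparison of cultures, stood out in experiment 3. Averaged over 18 probe sets, they read 11.73 on the irradiated and 11.23 on the control array, a log2 difference of 0.502. The pair of arrays is the one in which Fos, Fosl1 and Maff had their widest differences, and the part of the one in the other was not tested.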

How the results depend on the processing

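No probe set passed adjustment under any alternative but the replicate block as a random effect, which called 2, neither of them a member. The count of probe sets at an unadjusted p under 0.05, 3631 in the limma fit, was 2168 with no replicate block, 2260 of 16431 with dim probe sets left out, 1692 of 18193 with 1 probe set per gene, 1478 of 18193 with probe sets of a gene averaged, and 1692 to 3748 with 1 experiment left out. It was 4824 with array weights and 3921 with an intensity trend and a robust prior. Expressed members under that p, 2 of 8, were 1 with no replicate block, with the block as a random effect and with quantile normalization, 0 with probe sets averaged, and 1 to 2 with an experiment left out. Members above 0 numbered 3 to 5 with an experiment left out. With 1 experiment left out, signs turned for Fos (-0.210 to 0.425, lowest without experiment 3), the second Jun probe set (-0.140 to 0.110), the dim Fosl2 probe set (-0.260 to 0.030) and the dim Jund probe set (-0.130 to 0.035). The second Jun probe set, at 0.00, was also at -0.0233 with array weights and -0.0033 after quantile normalization. No other member's probe set changed sign under any alternative, nor did the 19 list genes named by the rule or Ptgs2, Mmp12, Il11, Mmp3, Tgfb1 and Cd14. Averaging in the dim probe set moved Fosl2 to 0.14, and with dim probe sets left out its limma adjusted p was 0.244. Signal near background, and not depth, limits the dim probe sets.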

Other observations

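With each experiment's mean taken off, so that a pattern holds only the 3 paired differences, other genes were nearest to the members. Maff was then most like Ifi202b, which differed by -0.03, 0.05 and 1.17, and Mthfd1l, a mitochondrial folate enzyme gene, at -0.04, 0.06 and 0.89. Jun was most like Procr, the endothelial protein C receptor gene, at -0.45, -0.04 and -0.47. None of the 2 genes nearest to any of the 8 expressed members was the same by both measures.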
